A study of Rattus norvegicus with 12 samples.

Results

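The mRNA levels of 10 glycolytic enzyme genes were followed in epididymal white fat, a visceral depot attached to the epididymis, in 12 rats, all male and of the Sprague-Dawley strain. The genes were Hk2, Pfkl, Pfkp, Aldoa, Tpi1, Pgk1, Pgam1, Eno1, Ldha and Ldhb, named by symbol from the platform annotation. Each was read from the brightest probe set assigned to that gene alone, judged by the mean of the 12 arrays. All 10 were among the 14506 genes tested. The study compared 4 fed rats, 4 rats fasted until phase 2 (P2) and 4 rats fasted until phase 3 (P3), each rat on its own Affymetrix Rat Gene 1.0 ST array. Ages, fasting times and body weights were not used here.

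Glycolysis splits glucose into pyruvate in the cytosol, and lactate dehydrogenase interconverts pyruvate and lactate. In white fat the pathway supplies acetyl groups for fatty acid synthesis and the glycerol backbone of stored triglyceride. In prolonged fasting, phase 2 is the long stage in which stored fat is the main fuel, and phase 3 is the late stage in which fat stores run low and protein breakdown increases.

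Values are log2 levels per probe set, so a difference of 1 is a 2-fold change. Changes are differences of group means with the standard error (SE) of limma's fit, and calls were made where p, adjusted over the 14506 genes, was under 0.05. Array medians over the whole table ranged from 6.03 to 6.13. The median over the tested genes averaged 6.98 in fed rats, 6.91 in P2 rats and 6.82 in P3 rats. One label, on RNA isolation, mentions liver, whereas the others name white adipose tissue. Of 6 hepatocyte markers, Apoa1, Ttr, Serpina1, Fgb and Tat had group means between 3.42 and 5.76, whereas Alb averaged 8.33 in fed rats, 9.62 in P2 rats and 6.73 in P3 rats. For comparison, olfactory receptor genes, taken as a guide to silent genes, averaged 3.76 with a 95th percentile of 5.66. The 6 adipocyte markers Adipoq, Plin1, Cidec, Fabp4, Lipe and Pparg had a mean level of 12.06 to 12.14 in fed rats, 12.05 to 12.10 in P2 rats and 10.64 to 11.51 in P3 rats.

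In phase 2, 8 of the 10 glycolytic genes fell, and the falls ran through the pathway from hexokinase to lactate dehydrogenase A. Hk2, Pfkl, Aldoa, Tpi1, Pgk1, Pgam1, Eno1 and Ldha were lower in P2 than in fed rats, Pfkp was higher, and Ldhb did not pass the test. Among all genes tested, 15.5% were called lower, 9.66% higher and 25.2% either way in this comparison. The median change of the members was -0.66, against 0.01 for all genes, and single changes ranged from -1.15 to 0.45. The P2 and fed values did not overlap for any of the 10 members, and the same held for 31.0% of all genes.

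In phase 3, 7 members were lower than in fed rats, Pfkp was higher, and Hk2 and Ldhb were not called. Over all genes, 24.3% were called lower, 21.1% higher and 45.4% either way. The P3 and fed values did not overlap for the 8 called members, as for 41.9% of all genes. With each array centred on its median, 6115 genes were called higher and 2670 lower in P3 than in fed rats, against 3066 and 3523 without centring, while the members' counts stayed at 1 higher and 7 lower. The members' median change was -0.86, against 0.05 for all genes, with a range from -2.19 to 0.38. Between the fasting stages, 3 members were called lower in P3 than in P2 at an adjusted p below 0.05. These were Tpi1, Pgk1 and Ldha, and 0 members were called higher. In this comparison, 15.1% of all genes were called lower, 12.8% higher and 27.9% either way. The members' count called either way was close to that share. The P3 and P2 values did not overlap for Tpi1 and Ldha, 2 of the 10, while 26.3% of all genes had no such overlap. The number of members called between P3 and P2, 3 with all rats, was 5 without P2 rat 1, with Hk2 called higher and Pgam1 called lower, and 5 without P3 rat 1, with Aldoa and Ldhb called lower. P2 and P3 were both set against the same 4 fed rats.

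**Figure D1:**
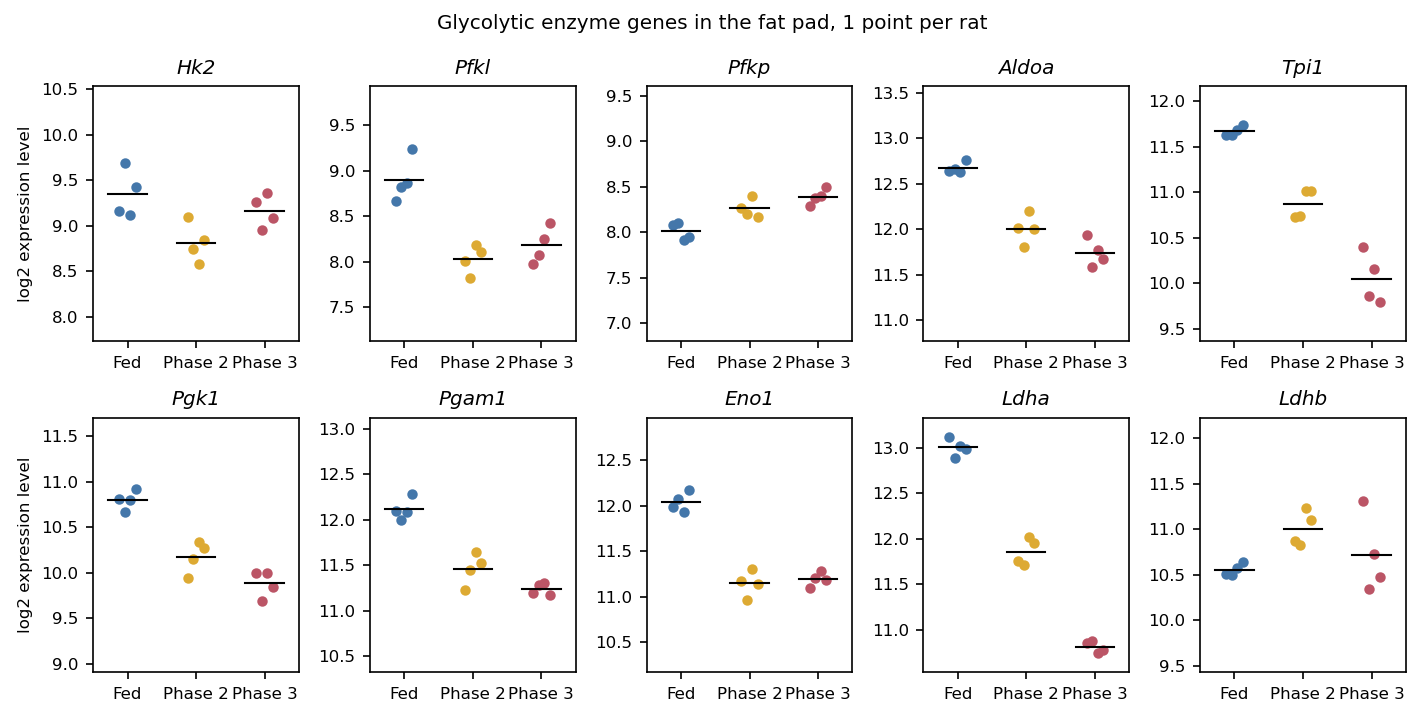
Log2 level of each of the 10 glycolytic genes in each rat, by group, with points for rats and lines for group means; the vertical axis of each panel has its own range. Ldha falls at both stages, to a mean of 11.86 in P2 and 10.81 in P3 against 12.89 to 13.12 in the 4 fed rats, while Pfkp lies higher in both fasted groups.

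Whether the later step differed from the earlier one was tested for each gene as the P3 minus P2 change minus the P2 minus fed change. A positive difference was called for Hk2, Pfkl and Eno1, and a negative one for 0 members, whereas 6.87% of all genes were called positive, 5.71% negative and 12.6% either way. The remaining 7 members showed no called difference between the steps. Among them, Ldhb had a difference of -0.74 (95% interval -1.37 to -0.12, limma adjusted p = 0.118). It stayed uncalled in 18 of 20 alternatives, but was called negative without P3 rat 1 (-0.94, adjusted p = 0.00552). For Ldha the difference was 0.10 ± 0.15 (SE, 95% interval -0.22 to 0.42), and for Tpi1 it was -0.02 ± 0.214 (95% interval -0.48 to 0.43).

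**Figure D2:**
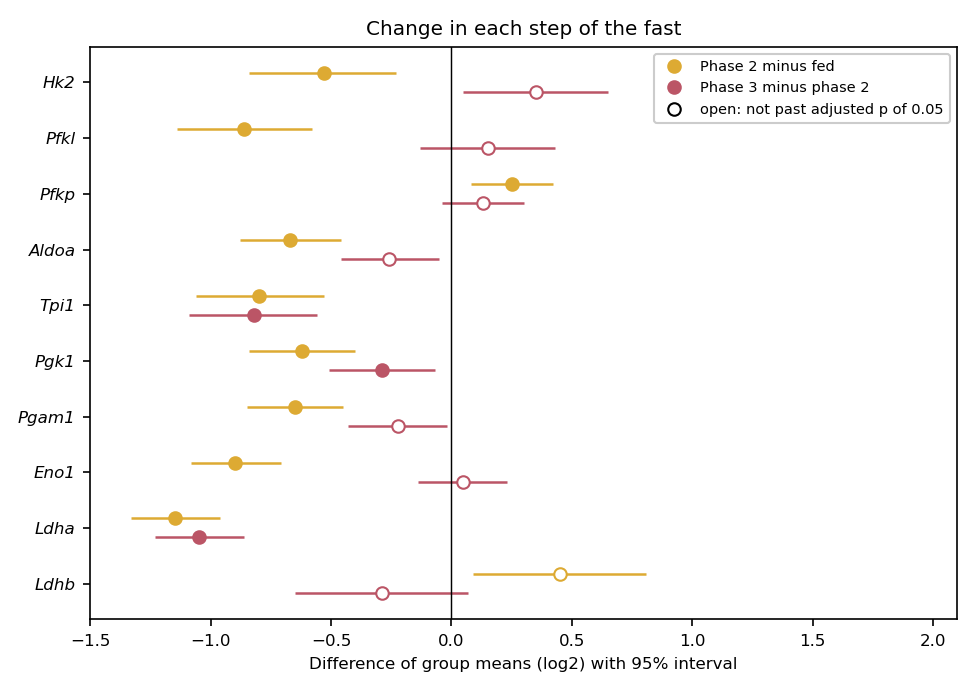
Difference of group means (horizontal axis, log2) with its 95% interval for each of the 10 glycolytic genes, as phase 2 minus fed and as phase 3 minus phase 2; filled points passed the adjusted p threshold of 0.05 and open points did not. Ldha and Tpi1 lie left of 0 by similar amounts in both steps, at -1.15 and -1.05 for Ldha and -0.80 and -0.82 for Tpi1, whereas Eno1 lies at -0.90 and 0.05.

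Hk2 encodes hexokinase 2, the insulin-responsive hexokinase of fat and muscle that traps glucose in the cell. Its levels in the 4 rats of each group were 9.16, 9.69, 9.12 and 9.43 in fed rats, 9.10, 8.74, 8.58 and 8.84 in P2 rats, and 9.26, 8.95, 9.36 and 9.08 in P3 rats. The lowest fed rat was only just above the highest P2 rat, and the P3 values overlapped both other groups. Hk2 was 1.45-fold lower in P2 than in fed rats (-0.53 ± 0.141, adjusted p = 0.0123, limma). In P3 it was not called against fed rats, at -0.18 ± 0.141 (95% interval -0.49 to 0.12, adjusted p = 0.308), or against P2 rats, at 0.35 ± 0.141 (95% interval 0.05 to 0.65, adjusted p = 0.0817). The difference between the steps was 0.89 ± 0.245 (adjusted p = 0.0299). That call ended under several settings, among which the adjusted p was 0.0557 with quantile normalisation, 0.0536 with cyclic loess, and 0.0554, 0.0921, 0.106 and 0.0636 without fed rat 4, P2 rat 2, P2 rat 3 and P2 rat 4 in that order.

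Phosphofructokinase commits hexose phosphate to glycolysis, and its liver-type and platelet-type subunits, Pfkl and Pfkp, are encoded by separate genes. Pfkl had levels of 8.67, 8.82, 8.86 and 9.24 in fed rats, 8.01, 7.82, 8.18 and 8.11 in P2 rats, and 7.98, 8.07, 8.25 and 8.43 in P3 rats. All 8 fasted rats were below all 4 fed rats, while P3 and P2 values overlapped. Pfkl was 1.82-fold lower in P2 (-0.86 ± 0.13, adjusted p = 0.000265) and 1.64-fold lower in P3 (-0.71 ± 0.13, adjusted p = 0.000411) than in fed rats. Between P3 and P2 the change was 0.15 (95% interval -0.13 to 0.43, adjusted p = 0.441), and the difference between the steps was 1.01 ± 0.226 (adjusted p = 0.00935). Pfkp ran the other way. Its levels were 8.08, 8.10, 7.91 and 7.95 in fed rats, 8.27, 8.20, 8.40 and 8.17 in P2 rats, and 8.29, 8.37, 8.40 and 8.50 in P3 rats. Every fasted rat lay above every fed rat. Pfkp was 1.19-fold higher in P2 (0.25 ± 0.0805, adjusted p = 0.0356) and 1.30-fold higher in P3 (0.38 ± 0.0805, adjusted p = 0.00141) than in fed rats. The P2 call for Pfkp was lost without fed rat 3, fed rat 4, P2 rat 1, P2 rat 2 or P2 rat 3, at adjusted p-values of 0.109, 0.0978, 0.0734, 0.0511 and 0.108 in that order, whereas its P3 call against fed rats held in all 21 alternatives.

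Aldolase A and triosephosphate isomerase act next, splitting fructose bisphosphate and interconverting the triose phosphates. Aldoa levels lay between 12.63 and 12.76 in fed rats, 11.81 and 12.20 in P2 rats, and 11.59 and 11.94 in P3 rats. The fed rats stood above all fasted rats, and P3 overlapped P2. Aldoa was 1.59-fold lower in P2 (-0.67 ± 0.0962, adjusted p = 0.00018) and 1.9-fold lower in P3 (-0.93 ± 0.0962, adjusted p = 2.36e-06) than in fed rats. The change between P3 and P2 was -0.26 (95% interval -0.46 to -0.05, adjusted p = 0.0623). Tpi1 separated all 3 groups. Its levels were 11.63, 11.63, 11.68 and 11.74 in fed rats, 10.73, 10.74, 11.01 and 11.01 in P2 rats, and 10.40, 9.86, 10.15 and 9.79 in P3 rats. Tpi1 was 1.74-fold lower in P2 (-0.80 ± 0.123, adjusted p = 0.000327) and 3.07-fold lower in P3 (-1.62 ± 0.123, adjusted p = 1.11e-07) than in fed rats. It was also 1.77-fold lower in P3 than in P2 (-0.82 ± 0.123, adjusted p = 0.000201). A brighter probe set that the annotation assigns to both Tpi1 and Tpi1l1 averaged 12.21, 11.46 and 10.77 in fed, P2 and P3 rats. It was not used for the tests. Its changes were -0.75 between P2 and fed rats and -1.44 between P3 and fed rats. Signal from near-identical copies cannot be separated on such a probe set.

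In the lower stretch of the pathway, in which energy is recovered as ATP, Pgk1, Pgam1 and Eno1 were each lower in P2 and in P3 than in fed rats. Phosphoglycerate kinase, encoded by Pgk1, makes ATP directly, phosphoglycerate mutase, encoded by Pgam1, moves the phosphate group, and enolase, encoded by Eno1, forms phosphoenolpyruvate. Pgk1 lay between 10.67 and 10.92 in fed rats, 9.94 and 10.34 in P2 rats, and 9.69 and 10 in P3 rats. The fed range stood apart from both fasted ranges, and the fasted ranges overlapped. Pgk1 was 1.54-fold lower in P2 (-0.62 ± 0.103, adjusted p = 0.000526) and 1.89-fold lower in P3 (-0.92 ± 0.103, adjusted p = 5.03e-06) than in fed rats. Its further fall from P2 was 1.23-fold (-0.29 ± 0.103, adjusted p = 0.0475), and this call was lost in 11 of 21 alternatives, among them the centring of each array on its median (-0.20, adjusted p = 0.154) and the omission of any 1 fed rat (adjusted p 0.0507 to 0.0623), of P2 rat 2, 3 or 4 (0.0771, 0.138 and 0.117) or of P3 rat 2 or 4 (0.126 and 0.105).

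Pgam1 lay between 12.00 and 12.28 in fed rats, 11.23 and 11.65 in P2 rats, and 11.17 and 11.31 in P3 rats. It was 1.57-fold lower in P2 (-0.65 ± 0.0948, adjusted p = 0.000207) and 1.83-fold lower in P3 (-0.87 ± 0.0948, adjusted p = 3.56e-06) than in fed rats, with no overlap in either comparison. The second, dimmer Pgam1 probe set averaged 6.04 ± 0.143 in fed rats, 6.04 ± 0.169 in P2 rats and 5.78 ± 0.0353 in P3 rats (SD, n = 4 each), just above the 95th percentile of the silent genes. Averaging both Pgam1 probe sets gave changes of -0.32 in P2 and -0.57 in P3 relative to fed rats, both still called lower. Eno1 levels were 11.99, 12.07, 11.93 and 12.17 in fed rats, 11.17, 10.97, 11.31 and 11.14 in P2 rats, and 11.10, 11.21, 11.28 and 11.19 in P3 rats. The P3 values lay within the P2 range. Eno1 was 1.86-fold lower in P2 (-0.90 ± 0.0874, adjusted p = 6.98e-06) and 1.80-fold lower in P3 (-0.85 ± 0.0874, adjusted p = 2.21e-06) than in fed rats. Between P3 and P2 it changed by 0.05 (95% interval -0.14 to 0.23, adjusted p = 0.743), and the difference between the steps was 0.94 ± 0.151 (adjusted p = 0.00127). Its 3 probe sets changed by -0.92 to -0.88 between P2 and fed rats.

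Lactate dehydrogenase is a tetramer of A and B subunits, and the A form is the one associated with making lactate from pyruvate. Ldha fell the most among the 10 members at each of the 3 comparisons. Its levels were 13.12, 12.89, 13.02 and 12.98 in fed rats, 11.75, 11.71, 12.02 and 11.95 in P2 rats, and 10.85, 10.87, 10.74 and 10.78 in P3 rats. The 3 groups were fully separated. Ldha was 2.21-fold lower in P2 than in fed rats (-1.15 ± 0.0865, adjusted p = 7.57e-07) and 4.57-fold lower in P3 than in fed rats (-2.19 ± 0.0865, adjusted p = 3.33e-10). The P3 level was thus 21.9% of the fed level, and 2.06-fold below that of P2 (-1.05 ± 0.0865, adjusted p = 1.3e-06). A second, dimmer Ldha probe set gave changes of -1.49 between P2 and fed rats, -2.55 between P3 and fed rats and -1.06 between P3 and P2 rats.

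Ldhb, the subunit of the form common in heart, did not follow Ldha. Its levels were 10.51, 10.50, 10.57 and 10.64 in fed rats, 10.87, 10.82, 11.23 and 11.10 in P2 rats, and 11.31, 10.34, 10.73 and 10.47 in P3 rats. All P2 rats were above all fed rats, but the P3 rats spread over both ranges, with a standard deviation of 0.429 against 0.194 in P2 and 0.0639 in fed rats. The change between P2 and fed rats was 0.45 ± 0.168 (95% interval 0.09 to 0.81, adjusted p = 0.0653) and that between P3 and fed rats 0.16 ± 0.168 (95% interval -0.20 to 0.52, adjusted p = 0.473). Without P3 rat 1, which enters the shared estimate of the spread, the P2 against fed comparison had an adjusted p of 0.00765, and the P3 against P2 change was -0.49 with an adjusted p of 0.00645, against -0.29 and 0.221 with all rats. In a fit of the P2 and fed rats alone, Ldhb was called higher in P2 at an adjusted p of 0.00452.

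The stretches of 250 bases before the start of each gene in RefSeq, assembly GRCr8, are shown for the subunit pairs whose members changed in opposite directions or unequally. Capitals mark CACGTG, the E-box bound by the glucose-responsive factor ChREBP and by USF and MYC, and the cores ACGTG and GCGTG, found in sites of the hypoxia-inducible factors (HIF), on either strand. The windows are chr1:106507842-106508091 (plus strand) for Ldha, chr4:177177409-177177658 (minus strand) for Ldhb, chr20:10663715-10663964 (plus strand) for Pfkl and chr17:68639563-68639812 (plus strand) for Pfkp.
Ldha: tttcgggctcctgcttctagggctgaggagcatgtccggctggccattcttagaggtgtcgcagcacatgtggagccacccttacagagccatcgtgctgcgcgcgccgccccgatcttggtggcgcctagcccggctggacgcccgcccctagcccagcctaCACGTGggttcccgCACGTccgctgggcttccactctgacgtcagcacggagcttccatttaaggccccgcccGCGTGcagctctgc
Ldhb: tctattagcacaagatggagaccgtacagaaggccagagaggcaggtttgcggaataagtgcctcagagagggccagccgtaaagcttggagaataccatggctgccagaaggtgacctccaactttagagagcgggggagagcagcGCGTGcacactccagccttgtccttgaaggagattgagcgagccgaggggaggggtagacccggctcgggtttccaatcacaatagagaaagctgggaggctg
Pfkl: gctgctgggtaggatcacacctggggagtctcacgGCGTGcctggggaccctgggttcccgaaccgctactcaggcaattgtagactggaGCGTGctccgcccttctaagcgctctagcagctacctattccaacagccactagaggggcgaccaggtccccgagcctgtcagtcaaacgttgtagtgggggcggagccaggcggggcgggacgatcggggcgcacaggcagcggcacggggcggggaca
Pfkp: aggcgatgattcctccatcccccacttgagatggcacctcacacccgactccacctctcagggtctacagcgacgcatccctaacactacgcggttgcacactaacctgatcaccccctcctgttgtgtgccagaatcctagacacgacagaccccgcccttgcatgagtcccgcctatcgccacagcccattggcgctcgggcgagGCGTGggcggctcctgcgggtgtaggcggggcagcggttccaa
The Ldha window held 1 E-box, 3 matches to ACGTG, of which 2 overlap the E-box, and 1 match to GCGTG. The Ldhb window held only 1 GCGTG, Pfkl held 2 and Pfkp held 1. Of the 10 members, 9 had a window in the table, with 12 windows in all, and Pgk1 had none there. Among these members, Ldha was the one with CACGTG, in 1 of the 12 member windows, and 5.59% of all 33469 windows contain it. ACGTG was found in Aldoa, Pgam1 and Ldha, in 3 of the 12 member windows, beside 16.6% of all windows. GCGTG was found in 6 members, in 7 of the 12 member windows, beside 25.9% of all windows. GGGCGG, the GC box bound by SP factors, was found in 7 members, in 7 of the 12 member windows, beside 30.5% of all windows. TATAAA was found in 0 member windows, beside 12.9% of all windows. Both strands were searched, a match is a run of letters and not a bound site, and no binding was measured here.

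Within each array, the difference between subunits changed with fasting, and only that change is read, since the levels of separate probe sets cannot be compared. Ldha minus Ldhb was 2.61, 2.39, 2.46 and 2.34 in fed rats, 0.88, 0.89, 0.79 and 0.85 in P2 rats, and -0.45, 0.53, 0.02 and 0.31 in P3 rats. The groups did not overlap, and P3 rat 1 stood lowest. The difference shifted by -1.60 in P2 and by -2.35 in P3 relative to fed rats, and by -0.75 in P3 relative to P2 rats. Each of these had p = 0.0286 in an exact two-sided permutation test, the smallest that 4 rats against 4 can give, and an adjusted p of 0.0343 over 6 tests. For P2 against fed rats, this separation follows from the single genes, since all P2 rats were lower for Ldha and higher for Ldhb. Without any 1 of the 4 P2 rats, the adjusted p for P3 against P2 was 0.0686 in the exact test, with shifts of -0.77 to -0.74. Pfkl minus Pfkp was 0.59, 0.72, 0.94 and 1.29 in fed rats, -0.26, -0.38, -0.21 and -0.05 in P2 rats, and -0.31, -0.31, -0.14 and -0.07 in P3 rats. All fasted rats lay below all fed rats, and P3 overlapped P2. The separation from fed rats follows from the single genes, since all fasted rats were lower for Pfkl and higher for Pfkp. The permutation test against fed rats adds nothing to it. The shift was -1.11 in P2 and -1.09 in P3 relative to fed rats (exact permutation test, adjusted p = 0.0343 each). In P3 relative to P2 rats it was 0.02 (exact permutation p = 0.83). The muscle-type gene Pfkm, not part of this difference, changed by -0.74 between P3 and P2 rats (limma, adjusted p = 2.79e-05).

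**Figure D3:**
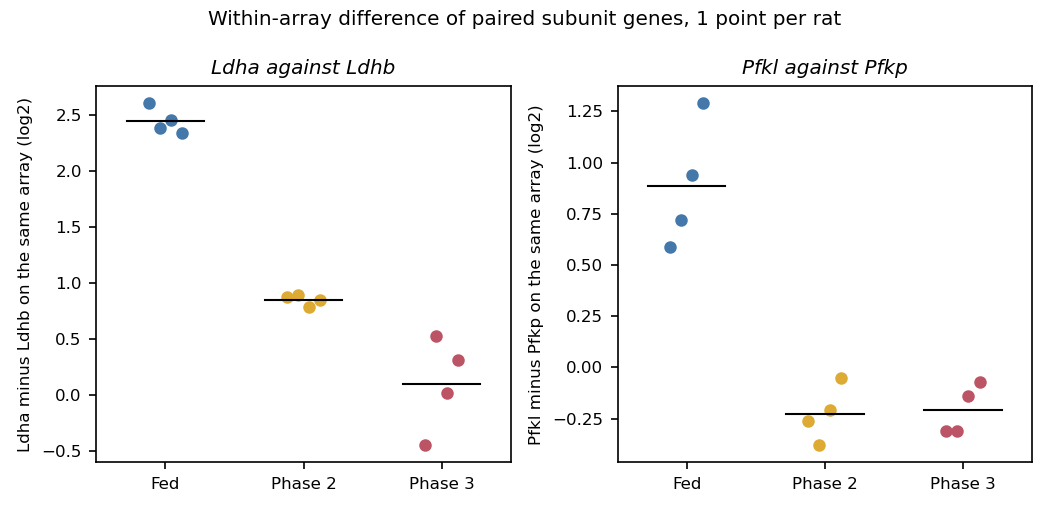
Within-array difference of log2 levels (vertical axis), Ldha minus Ldhb and Pfkl minus Pfkp, with 1 point per rat and a line at each group mean. Ldha minus Ldhb is lower in phase 2 than in fed rats and lower still in phase 3, and Pfkl minus Pfkp is lower in both fasted groups, which overlap.

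Of 19 other enzymes of the pathway, 16 were measured. Over all genes, 15.5% were called lower and 9.66% higher in P2 than in fed rats, and 24.3% and 21.1% in P3. In P2, 6 of the 16 were lower than in fed rats, namely Hk1, Adpgk, Gpi, Pfkm, Gapdh and Pkm, and 1 was higher, Aldoc. Pkm, the pyruvate kinase gene of most tissues, changed by -1.07 (adjusted p = 1.75e-05), and Gapdh, the dehydrogenase often used as a reference gene, by -0.60 (adjusted p = 4.53e-05). In P3, 9 were lower than in fed rats, the list gaining Bpgm, Eno3 and Ldhd, and 3 were higher, Aldoc, Eno2 and Ldhc. The muscle phosphofructokinase gene Pfkm changed by -1.15 in P3 and by -0.41 in P2 relative to fed rats, and the isomerase Gpi by -0.88 and -0.34. Aldoc, the brain-type aldolase, was 0.60 higher in P2 (adjusted p = 0.0293) and 1.37 higher in P3 (adjusted p = 2.71e-05), opposite in sign to Aldoa. Its mean was 5.65 in fed rats, near the 95th percentile of the silent genes (5.66), 6.24 in P2 rats and 7.02 in P3 rats. Eno2, the neuronal enolase, was 0.47 higher in P3 (adjusted p = 0.00782), opposite in sign to Eno1. The P2 call for Aldoc was lost without fed rats 1, 3 or 4 or P2 rats 1 or 3, at adjusted p-values of 0.0535 to 0.0928. The Ldhc change of 0.25 (adjusted p = 0.0487) was measured at 4.08 to 4.33 and was lost in 11 of 20 alternatives. Hk3, Gapdhs and Pklr, at group means of 4.73 to 5.25, lay below the 95th percentile of the silent genes. The 16 Gapdh probe sets changed by -0.76 to -0.60 in P2 and -1.03 to -0.81 in P3 relative to fed rats.

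**Figure D4:**
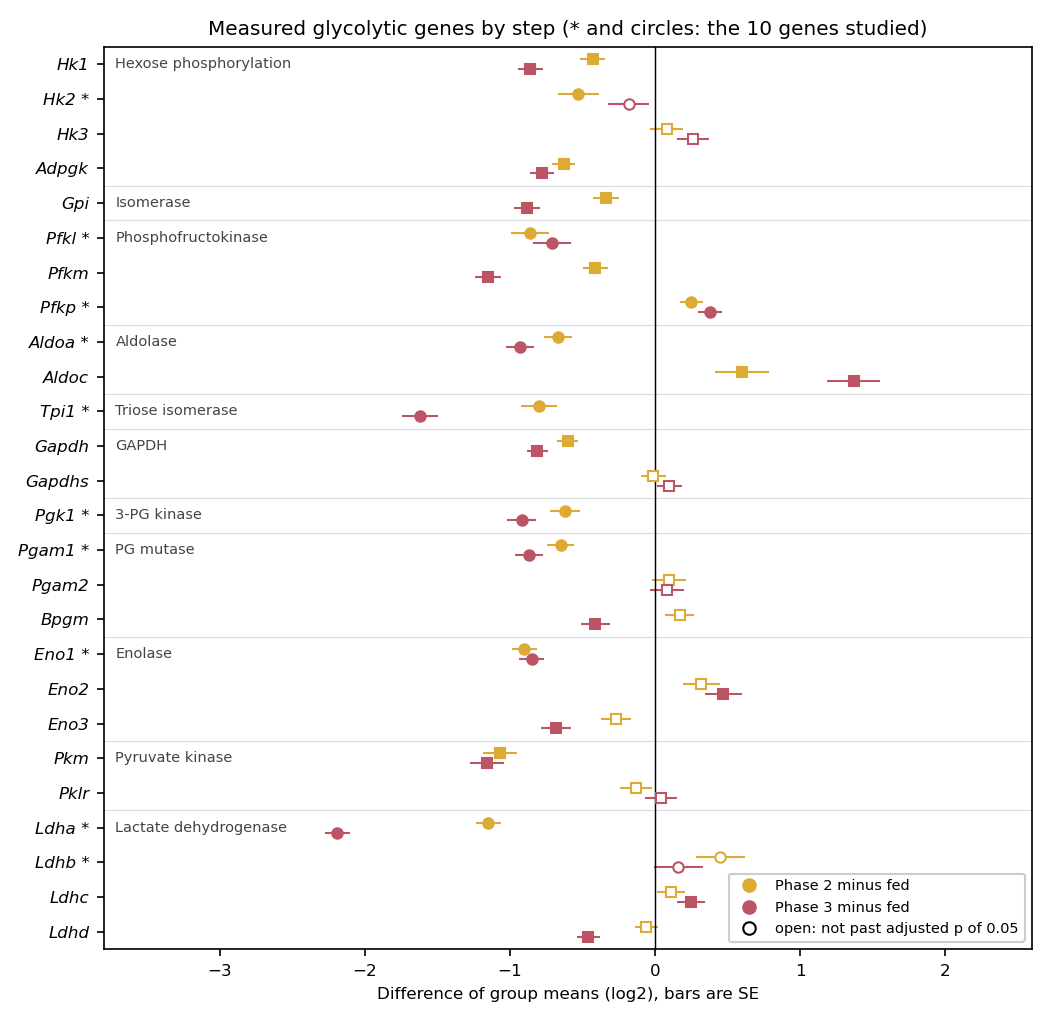
Difference of group means (horizontal axis, log2, bars for the SE) as phase 2 minus fed and phase 3 minus fed, for the 10 genes (asterisks and circles) and the 16 other measured glycolytic genes (squares), in pathway order; open symbols did not pass the adjusted p threshold of 0.05. Ldha lies farthest left, at -2.19 in phase 3, and Aldoc farthest right, at 1.37.

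Of 7 glucose and lactate transporter genes measured, 1 rose and 2 fell in P2, and 2 rose and 3 fell in P3, each against fed rats, where 25.2% and 45.4% of all genes were called either way. Slc2a4, the insulin-responsive glucose transporter GLUT4, was 1.88 lower in P2 and 1.4 lower in P3 than in fed rats on the log2 scale. Slc16a1, a lactate transporter, was 1.04 and 0.84 lower. Slc2a1, the widely expressed glucose transporter GLUT1, was 1.12 higher in P3 than in fed rats and was not called in P2, at 0.18. Slc2a3, the glucose transporter GLUT3, was 0.64 higher in P2 (adjusted p = 9.67e-05) and 0.45 higher in P3 (adjusted p = 0.000565) than in fed rats.

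Genes of pyruvate use changed as well. Of 14 measured, 11 were lower and 2 higher in P2 than in fed rats, and 9 were lower and 2 higher in P3. The shares over all genes were 15.5% lower and 9.66% higher in P2, and 24.3% lower and 21.1% higher in P3. Pdk4, which shuts down the pyruvate dehydrogenase complex by phosphorylating it, was 3.05 higher in P2 and 5.11 higher in P3. Dlat, the acetyl-transferring subunit of that complex, changed by -1.38 and -1.79. Pc, which turns pyruvate into oxaloacetate, changed by -1.24 and -3.12. Among 12 side-branch genes, 7 were lower and 0 higher in P2 at an adjusted p below 0.05 in limma, and 8 were lower and 2 higher in P3. Tkt, the transketolase of the pentose phosphate route, changed by -1.79 and -2.25, and Pgm1, which links glycogen to glycolysis, by -0.93 and -1.55.

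Of 12 genes that set the fructose bisphosphate signal and the reverse pathway, 2 rose and 5 fell in P2 and in P3 against fed rats. In these comparisons, 25.2% and 45.4% of all genes were called either way. The sets differed, with Pfkfb3 and Pck1 higher in P2 and Pfkfb3 and Fbp1 higher in P3. Fbp2 was called lower in P2 only, and Pck1 in P3 only. Fbp1, at group means of 3.98 to 4.33, and Fbp2, at 4.6 to 4.94, lay below the 95th percentile of the silent genes. Pfkfb3, which makes the activator of phosphofructokinase, was 1.42 higher in P2 and 1.80 higher in P3, and Pfkfb1, a further isoform, changed by -0.56 and -1.70. Pck1, the entry enzyme of glyceroneogenesis in fat, was 1.03 higher in P2 than in fed rats but changed by -1.46 in P3. Its P3 values overlapped the fed values, with a standard deviation of 0.838 in P3, 0.365 in fed and 0.102 in P2 rats.

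Among 12 transcription regulators of glycolytic genes, 2 rose and 1 fell in P2, and 5 rose and 2 fell in P3, each against fed rats, beside 25.2% and 45.4% of all genes called either way. In P2 that count was close to the share over all genes. Mlxipl, which encodes ChREBP, changed by -1.37 in P2 and -2.01 in P3. Epas1, which encodes the HIF-2 alpha subunit, was 0.81 higher at both stages. Vhl was 1.38 higher in P3 (limma, adjusted p = 1.64e-07) and was not called in P2, at 0.17 (adjusted p = 0.318). Hif1a, named after its values were seen, was not called, at -0.15 in P2 (adjusted p = 0.139) and -0.05 in P3 (adjusted p = 0.568). Of 15 HIF target genes outside glycolysis, 7 rose and 2 fell in P2, and 6 rose and 4 fell in P3. Bnip3, a mitophagy receptor, was 1.25 and 1.72 higher, and Ndrg1 was 0.72 and 1.92 higher, whereas Pdk1, which inhibits pyruvate dehydrogenase, changed by -0.92 and -0.58. Per rat, the mean of this HIF list relative to the fed mean was 0.22 to 0.30 in P2 and 0.49 to 0.66 in P3. The median change over its 15 genes was 0.22 in P2 and 0.05 in P3. The mean of the 10 glycolytic members per rat was -0.67 to -0.42 in P2 and -0.89 to -0.68 in P3.

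Cell type markers moved with the same comparisons, and in bulk tissue fewer cells of a type and less RNA per cell cannot be told apart. For comparison, 15.5% of all genes were called lower and 9.66% higher in P2 than in fed rats, and 24.3% and 21.1% in P3. Between P3 and P2, 15.1% of all genes were called lower. In P2, 0 of 6 adipocyte markers were called by limma, and their mean relative to fed rats was -0.03 to 0.02. P2 and fed values did not overlap for Plin1 (-0.13), Lipe (0.13) and Pparg (-0.25), as for 31.0% of all genes, and overlapped for the other adipocyte markers. The shared estimate of the spread includes the P3 rats, where Plin1 had a standard deviation of 0.928, against 0.0236 in P2 rats. In P3, 6 of 6 were lower than in fed rats and than in P2 rats, and the mean relative to fed rats was -0.57, -1.43, -1.15 and -1.44 in rats 1 to 4. The members' own means in those 4 rats were -0.68, -0.89, -0.71 and -0.82. Fibroblast and progenitor markers were lower for 2 of 6 in P2 and 6 of 6 in P3, with means of -0.83 to -0.50 in P2 and -2.02 to -1.53 in P3. Smooth muscle markers were higher for 6 of 6 at both stages, with means of 0.87 to 1.72 in P2 and 0.77 to 1.45 in P3, against -0.36 to 0.37 in fed rats.

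Endothelial markers were higher for 4 of 5 measured in P2 and 3 of 5 in P3 than in fed rats. Among all genes, 9.66% and 21.1% were called higher at these stages, and 15.5% and 24.3% lower. Macrophage markers were higher for 1 of 6 in P2, and in P3 higher for 3 and lower for 2. Erythroid markers had means of -1.34 to -0.05 in P3 and 0.40 to 0.77 in P2 relative to fed rats. Mesothelial markers were lower for 3 of 4 measured at both stages. Of the hepatocyte markers 1 was called, Alb, which was lower in P3, at a mean of 6.73 against 9.62 in P2 and 8.33 in fed rats. Of the skeletal muscle markers, 2 of 6 were lower in P3, Tnnt3 and Eno3, the second of which is also a glycolytic enzyme. The epididymis and testis markers had 0 of 5 called, also at levels of 3.57 to 6.63. The part of these cell type shifts in the glycolytic changes was not tested.

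**Figure D5:**
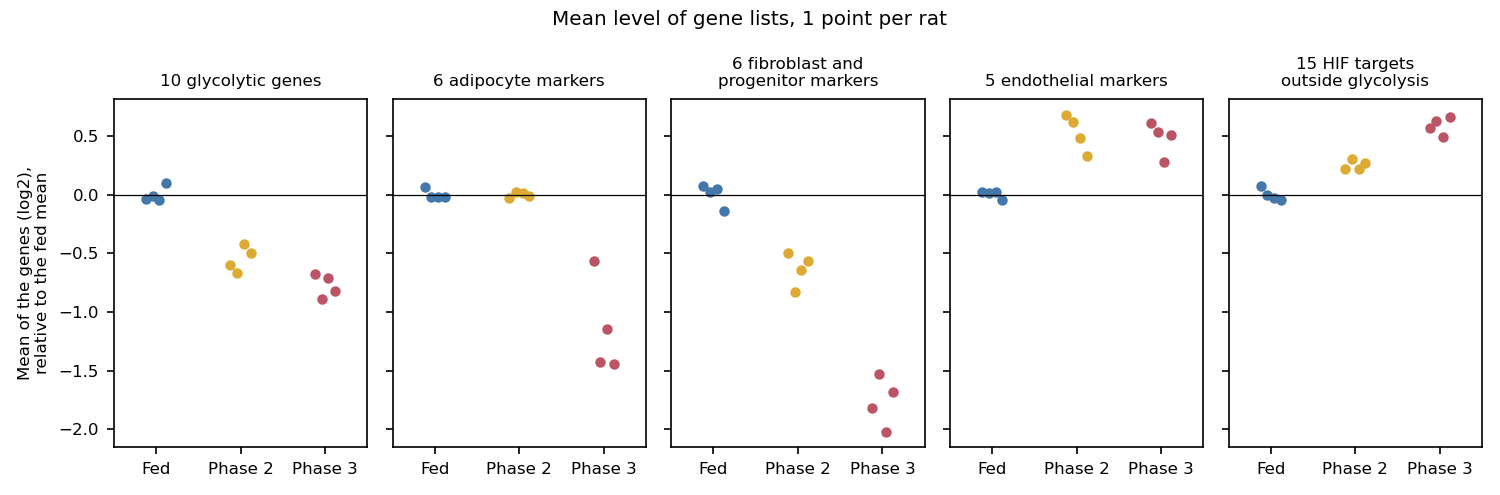
Mean log2 level of each gene list relative to its fed mean (vertical axis), with 1 point per rat, for the 10 glycolytic genes, adipocyte, fibroblast and progenitor, and endothelial markers, and HIF targets outside glycolysis. The glycolytic genes lie at -0.67 to -0.42 in phase 2, where adipocyte markers lie at -0.03 to 0.02, and at -0.89 to -0.68 in phase 3, where adipocyte markers lie at -1.44 to -0.57.

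Single rats differed in the level of several members together. P2 rat 3 was the highest of its group for 8 of the 10 members, and fed rat 4 for 7, with mean deviations from their group of 0.13 and 0.10. Fed rat 2 and P2 rat 2 were each the lowest of their group for 5 members, and P3 rat 2 for 4, with mean deviations of -0.01, -0.12 and -0.11 in that order.

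The genes whose centred profile over the 12 arrays lay closest to the mean profile of the members were Coa3, Gapdh, Yif1b, Tmed1 and P4hb, at root mean square distances of 0.0635, 0.0662, 0.0724, 0.0758 and 0.0765 log2 units. Among the members, Aldoa, Pgk1 and Pgam1 were nearest to that mean, at 0.0828, 0.0988 and 0.106, and Ldha was farthest, at 0.589. P4hb, protein disulfide isomerase, changed by -0.57 in P2 and -0.83 in P3 relative to fed rats, and Coa3, a cytochrome oxidase assembly factor, by -0.48 and -0.73.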

How the data were processed

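Levels were log2 values per probe set of 12 Affymetrix Rat Gene 1.0 ST arrays, which the authors deposited after RMA, according to the submitters' processing notes. These also name GCOS and Affymetrix Expression Console 1.1. RMA corrects background, quantile-normalises arrays and summarises probes, so a shift shared by most genes is largely removed. Its settings, detection calls and scan batches are not given in the sources used here. Of 29215 probe sets, 15310 had 1 gene, 323 several and 13582 none, which left 14506 genes, each at its brightest probe set. Groups were taken from the sample titles. All 12 arrays entered 1 model with a mean per group (limma 3.58.1 lmFit and eBayes, R 4.3.3), with Benjamini-Hochberg adjustment over all genes, checked on simulated data. Each array was a separate rat, with no technical repeats per the labels, and p-values therefore reflect differences among rats. Subunit differences used exact permutation tests. Named genes were the 10 members, all other glycolytic enzymes, up to 4 genes with the smallest adjusted p per comparison from each related list, a selection of which is printed, and the 5 nearest profiles. The members and lists were chosen with earlier results of these data known. Python 3.11.15, pandas 2.3.3 and matplotlib 3.10.9 were used. Alternatives tried were other normalisations and spread estimates, probe set choice, a filter on dim genes, a replicate block and leaving out each rat.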

Additional observations from a re-analysis of the deposited data

Results flagged for a closer look

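With 4 rats per group, 87 sets of values of glycolytic and related genes were searched for a rat far from the other 3, judged by its gap to the nearest of them over the whole range (Dixon's test), and 3 were found. By chance about 5% of such groups stand out. Adpgk, the ADP-dependent glucokinase, had a ratio of 0.841 in P2, where rat 1 stood at 8.65 and the others at 8.50, 8.53 and 8.52. Gapdh had a ratio of 0.879 in P3, where rat 3 stood at 12.20 and the others at 12.12, 12.12 and 12.11. Pklr had a ratio of 0.845 in P3, where rat 3 stood at 5.47 and the others at 5.20, 5.15 and 5.18, all near the level of silent genes. None of the 10 members was among the 3.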

How the results depend on the processing

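Over the 10 members and 4 contrasts, 830 alternative values were computed. Of these, 785 kept their side of the threshold, 24 lost the call, 21 gained it and 0 called changes reversed. Changes that were not called could change sign near 0, as for Eno1 between P3 and P2, at -0.01 to 0.14. Members called numbered 8 to 10 in P2 against fed and 8 in P3 against fed in every alternative run. Between P3 and P2 the count was 2 to 5 (5 without P2 rat 1 or P3 rat 1, 3 with all rats), and for the difference between steps 2 to 4. Leaving out single rats, the shift of Ldha minus Ldhb between P3 and P2 was -0.90 to -0.57, and without any 1 of the P2 rats its adjusted p was 0.0686, with 3 rats against 4. Leaving out P2 rat 1, 1109 genes were called for the difference between steps, against 1826. Centring arrays on their medians gave an all-gene median change of 0.21 in P3 against fed rats, against 0.05 without it, and the share of higher among called genes was 69.6% after centring and 46.5% before (53.0% and 38.4% in P2 against fed rats, 64.9% and 45.8% in P3 against P2 rats). Between P3 and P2 it called Hk2 (0.44, adjusted p = 0.0355) and Pfkp (0.22, adjusted p = 0.043) higher and no longer called Pgk1. Same-numbered rats did not deviate together (correlations -0.155 to 0.188), so the numbers do not pair them. With the number as a replicate block, 8, 8 and 3 members were called in P2 against fed, P3 against fed and P3 against P2, with 3539, 6526, 3995 and, for the steps, 1724 genes over all; it ended the calls of Hk2 for the difference between steps (adjusted p = 0.0542) and of Pfkp (0.068) and Aldoc (0.0559) in P2 against fed rats. The number of arrays limits the precision.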
